A study of Mus musculus with 12 samples.

Results

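The neuronal tubulins and microtubule-associated proteins described here are 10 genes that build, stabilise or take apart the microtubules of nerve cells: Tubb3, Tubb2a, Tubb2b, Dcx, Dclk1, Mapt, Map2, Map1b, Stmn2 and Stmn3. They are 10 of the 18193 genes with a probe set of their own on the array, and 32 of the 34945 probe sets annotated to 1 gene symbol. The members were chosen by name, with earlier results of these data known. Each gene was read from its brightest probe set, meaning the highest mean over the 12 arrays, and the 22 further probe sets were compared with it. All 10 genes passed the filter on dim signals, which asked for a signal above the array's median on at least 3 arrays of any group. In uninduced cells 8 of the 10 were above the median on all 3 arrays. Dcx and Dclk1 were not, so they passed only through the groups in which they were bright.

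The 12 arrays measured RNA of mouse ES (embryonic stem) cells with a Neurog1 transgene under doxycycline control, 3 arrays for each of 4 groups. The groups were uninduced cells in maintenance culture (0 h) and cells given doxycycline at 1 ug/ml for 24, 48 and 72 h. Neurog1 is a proneural transcription factor of the basic helix-loop-helix class. All cells were of 129P2/OlaHsd background (E14, Ainv15), in serum medium with leukaemia inhibitory factor (LIF), puromycin and G418. The labels give that medium for every group and call the arrays of a group biological replicates. They do not say whether the cells were 1 clone. No uninduced cells were collected after 0 h. Effects of Neurog1, of doxycycline itself and of the hours in culture cannot be told apart here.

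Microtubules are polymers of alpha- and beta-tubulin dimers, and a neuron uses them as tracks and as scaffolding for its axon and dendrites. The class III beta-tubulin encoded by Tubb3 is a classic mark of young neurons. Structural microtubule-associated proteins (MAPs) such as tau, MAP2, MAP1B and doublecortin bind the polymer and stabilise it, while stathmins bind free tubulin dimers and favour disassembly.

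RefSeq promoter windows of the GRCm38.p6 assembly, each running from 250 bases before to 50 bases after an annotated start, were matched by symbol to 7 of the 10 genes, in 9 windows. The 5 below are shown because they belong to the gene with the largest difference at 72 h (Dcx), to Tubb3 and the members whose time courses lay closest to it (Map1b and Stmn3), and to Tubb2a, the other tubulin with a window. Only the 250 bases before the start are printed, 5′ to 3′ on the gene's own strand. Capitals mark the searched motifs on either strand. They were 4 forms of the E-box, the sequence class that basic helix-loop-helix factors bind, with the TATA box spelled TATAAA and the GC box spelled GGGCGG. The E-box searches used CAGATG for the first form, then CATATG for the second, CAGCTG for the third and finally CACGTG for the last.
Tubb3 promoter, chr8:123411303-123411552, plus strand: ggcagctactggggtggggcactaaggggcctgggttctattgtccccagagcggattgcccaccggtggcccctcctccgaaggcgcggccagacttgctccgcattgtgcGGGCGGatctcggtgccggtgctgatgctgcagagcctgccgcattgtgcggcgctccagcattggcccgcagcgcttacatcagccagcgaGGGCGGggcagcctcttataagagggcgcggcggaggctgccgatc
Tubb2a promoter, chr13:34078009-34078258, minus strand: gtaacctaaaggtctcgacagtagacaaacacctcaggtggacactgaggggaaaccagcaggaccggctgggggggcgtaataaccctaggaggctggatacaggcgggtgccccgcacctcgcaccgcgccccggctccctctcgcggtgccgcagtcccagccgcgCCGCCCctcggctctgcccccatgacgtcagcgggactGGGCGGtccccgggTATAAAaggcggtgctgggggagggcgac
Map1b promoter, chr13:99516603-99516852, minus strand: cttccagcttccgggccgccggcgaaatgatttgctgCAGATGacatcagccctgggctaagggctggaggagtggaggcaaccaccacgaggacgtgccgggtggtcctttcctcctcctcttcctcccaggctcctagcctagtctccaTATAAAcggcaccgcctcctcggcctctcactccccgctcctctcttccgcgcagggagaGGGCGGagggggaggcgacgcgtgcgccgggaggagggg
Stmn3 promoter, chr2:181314501-181314750, minus strand: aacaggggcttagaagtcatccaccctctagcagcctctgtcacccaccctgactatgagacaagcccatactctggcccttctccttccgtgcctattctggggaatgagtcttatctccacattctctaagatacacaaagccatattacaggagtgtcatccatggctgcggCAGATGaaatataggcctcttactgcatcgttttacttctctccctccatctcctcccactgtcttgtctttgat
Dcx promoter, chrX:143933220-143933469, minus strand: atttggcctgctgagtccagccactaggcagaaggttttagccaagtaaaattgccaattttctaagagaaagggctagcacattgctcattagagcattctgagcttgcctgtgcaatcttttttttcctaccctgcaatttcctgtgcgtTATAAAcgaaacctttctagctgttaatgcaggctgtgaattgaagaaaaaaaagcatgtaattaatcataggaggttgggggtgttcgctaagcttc
CAGATG lay in the windows of 2 members, Map1b and Stmn3, at 213 and 75 bases before the start. Among all 32851 windows of that length, 17.2% held it. The other searched E-box forms were in none of the 9 member windows, against 3.91% of all windows for CATATG, 16.3% for CAGCTG and 7.15% for CACGTG. Further E-box spellings were not searched. The spelling TATAAA was found in 13.6% of all windows. Among members it was found for Tubb2a at -29 from the start and for Map1b at -99. For Dcx the 2 windows overlap, and the same match lay at -98 in the window shown and at -193 in the other. The GC box was found for 4 members (Tubb3, Tubb2a, Map1b and Map2), and in 35.7% of all windows. None of these matches overlapped a match to another searched motif. The GC content was 77.7% in the Map2 window, 67.3% in that of Tubb3, 67% in that of Tubb2a and 43% in the Dcx window shown, against a median of 52.7% over all windows. A match is a description of the letters, and binding was not measured.

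The induced gene followed the labels. The brighter Neurog1 probe set read 4.53 to 18.7 in uninduced cells, 756 to 974 at 24 h, 889 to 1152 at 48 h and 465 to 783 at 72 h, in units of the deposited signal. One array stood apart, the 24 h replicate 1. Over the genes that passed the filter it correlated with the other 24 h arrays at 0.787 and 0.812, against 0.961 or more in every other within-group pair. Its ratio of 3′ to 5′ control signal for Pcx was 6.81, against 1.22 to 2.80 on the other arrays. The 24 h difference of each member is therefore given below with and without that array. The signals of the 12 ES cell markers summed to 42350 to 47147 per array in uninduced cells, 22564 to 29936 at 24 h, 5984 to 9174 at 48 h and 5480 to 5829 at 72 h. The 12 neuron markers, none of them a member, summed to 728 to 1138, 1015 to 2029, 6117 to 11071 and 22036 to 22834 in the same order. For the 8 neural progenitor markers the sums were 2359 to 2584, 2250 to 3565, 7779 to 8970 and 8380 to 9442. The 6 astroglial markers summed to 120 to 200, 222 to 366, 607 to 726 and 455 to 671 in that order. Among them Gfap, Aqp4 and S100b stayed at or under 47.3 on every array, while Slc1a2 read 544 to 624 at 48 h. The part of such shifts in cell makeup in the members' values was not tested, and in these bulk samples more cells of a type and more RNA per cell cannot be told apart.

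Tubb3 (chr8:123411553-123422015) rose up to 48 h, with no called step after that. Its signal was 504, 335 and 332 in uninduced cells, 2333, 873 and 544 at 24 h, 3781, 3586 and 3101 at 48 h, and 3910.3, 4059 and 4476 at 72 h. All 9 induced arrays were above all 3 uninduced arrays, and the 24 h arrays were the most scattered. At 72 h the log2 difference from uninduced cells was 3.38 ± 0.40 (SE; limma, adjusted p = 2.67e-05), a 10.4-fold change. Differences here are of log2(signal + 16) with n = 3 arrays per group, and adjusted p is by Benjamini-Hochberg over the 11806 genes tested. A gene is called where adjusted p is under 0.05. At 48 h the difference was 3.13 ± 0.40 (adjusted p = 7.12e-05). The 24 h difference was 1.40 ± 0.40 (adjusted p = 0.0382) and became 0.82 ± 0.21 (adjusted p = 0.0125) without replicate 1. Leaving out any of the 12 arrays other than 24 h replicates 1 and 3 ended the 24 h call (adjusted p of 0.0523 to 0.12). Between 24 h and 48 h Tubb3 rose by 1.73 ± 0.40 (adjusted p = 0.00948), and by 2.31 ± 0.21 without 24 h replicate 1 (adjusted p = 1.38e-05). The step between 48 h and 72 h was not called (0.25, 95% interval -0.60 to 1.11).

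Tubb2a and Tubb2b encode closely related class II beta-tubulins that are abundant in brain. They are neighbours on chromosome 13 (Tubb2a at chr13:34074278-34078008, Tubb2b at chr13:34127008-34130354), 48999 bases apart with 1 annotated gene between them. Tubb2a read 349, 364 and 261 in uninduced cells, 1066, 456 and 731 at 24 h, 539, 658 and 693 at 48 h, and 1758, 1932 and 2219.6 at 72 h. Its course had a plateau, since the 24 h and 48 h arrays overlapped and both groups lay between the uninduced and the 72 h arrays. The difference from uninduced cells was 1.10 ± 0.28 at 24 h (adjusted p = 0.0246) and 0.82 ± 0.21 without replicate 1 (adjusted p = 0.0124). It was 0.93 ± 0.28 at 48 h (adjusted p = 0.0213) and 2.55 ± 0.28 at 72 h (adjusted p = 1.79e-05). Between 48 h and 72 h Tubb2a rose by 1.62 ± 0.28 (adjusted p = 0.0173), and that call was lost when any 48 h or 72 h array was left out (adjusted p of 0.0655 to 0.0974). The 24 h call was lost without uninduced replicate 1 or 3 (0.0657 and 0.0998), and the 48 h call without uninduced replicate 3 (0.0861), 48 h replicate 2 (0.0676) or 48 h replicate 3 (0.0721). The suffix of this probe set marks possible cross-hybridisation to other transcripts, so its values are uncertain for a gene with so close a paralogue. A further Tubb2a probe set without that suffix was dimmer, at 29.0 to 48.3 in uninduced cells, 38.6 to 98.4 at 24 h, 50.3 to 60.2 at 48 h and 64.4 to 122 at 72 h. Read from it, Tubb2a kept a call at 72 h alone (0.87, adjusted p = 0.0309), with 0.54 at 24 h (adjusted p = 0.27), 0.38 at 48 h (0.347) and 0.49 between 48 h and 72 h (0.824).

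Tubb2b was already bright before induction. It read 1946, 1200.0 and 1532 in uninduced cells, 3504, 1354 and 1851 at 24 h, 4107, 2833 and 3510.3 at 48 h, and 4678, 3634 and 5484 at 72 h. The 24 h arrays overlapped the uninduced ones, while the 48 h and 72 h arrays all lay above them. The difference was not called at 24 h (0.43 ± 0.32, adjusted p = 0.416), where it was 0.05 ± 0.23 without replicate 1. Tubb2b rose by 1.16 ± 0.32 at 48 h (adjusted p = 0.0118) and by 1.56 ± 0.32 at 72 h (adjusted p = 0.00157). The 48 h call was lost without uninduced replicate 2 (adjusted p = 0.0521) or 48 h replicate 1 (0.0537).

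**Figure D1:**
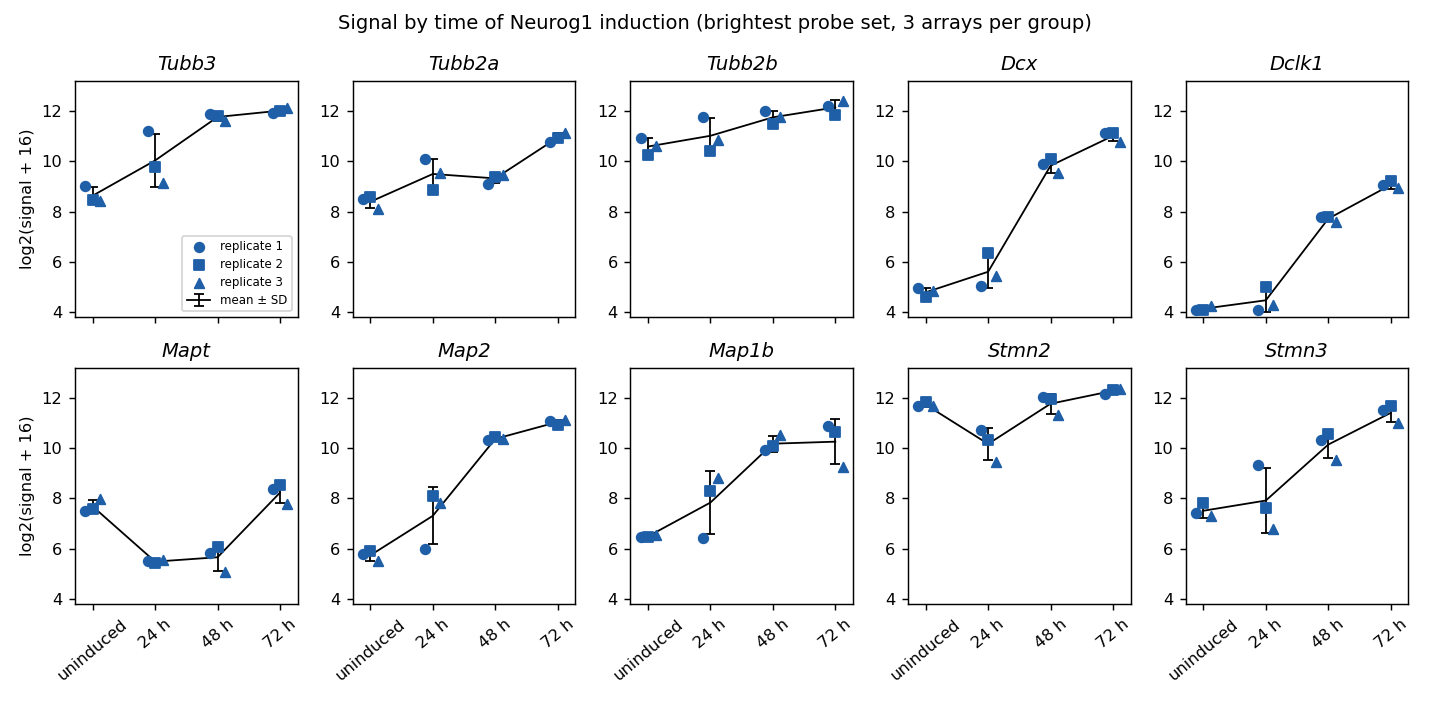
Level of each gene as log2(signal + 16) on each array, from uninduced cells on the left of each panel to 72 h on the right; points are arrays, the line joins group means and bars are SD (n = 3). Dcx, Map2, Map1b, Dclk1, Tubb3 and Stmn3 have the largest rises by 48 h, while Mapt and Stmn2 dip first.

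Dcx (chrX:143855842-143933396) encodes doublecortin, a MAP of migrating immature neurons, and showed the largest difference of the 10 genes on the log2(signal + 16) scale. Its signal was 15.0, 8.27 and 12.4 in uninduced cells, 17.2, 65.1 and 27.5 at 24 h, 928, 1073 and 720.1 at 48 h, and 2238, 2224 and 1754 at 72 h. The signal was dim at 0 h and 24 h, and no array of any later time overlapped those of an earlier one. Dcx rose by 5.04 ± 0.31 at 48 h (adjusted p = 3.87e-07) and by 6.22 ± 0.31 at 72 h (adjusted p = 7.87e-08). All 3 uninduced Dcx arrays were under their array's median, so the size depends on the constant added before the logarithm: the 72 h difference of Dcx was 7.36 with 1 and 4.81 with 64 in place of 16, both called. Between 24 h and 48 h it rose by 4.22 ± 0.31 (adjusted p = 2e-05). The 24 h difference of 0.82 ± 0.31 was not called (adjusted p = 0.109), but without replicate 1, the dimmest of the 3, it was 1.10 ± 0.25 (adjusted p = 0.00723). The step between 48 h and 72 h was 1.19 ± 0.31 (adjusted p = 0.112), and it was called without 24 h replicate 1 (adjusted p = 0.0113) or 24 h replicate 2 (0.046).

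Dclk1 (chr3:55242303-55539068) encodes doublecortin-like kinase 1, which joins doublecortin domains to a protein kinase. Its brightest probe set read 0.839, 1.19 and 2.99 in uninduced cells, 1.25, 16.3 and 3.83 at 24 h, 204, 206 and 177 at 48 h, and 514, 579 and 473 at 72 h. All uninduced and 24 h arrays were dim, and the 48 h and 72 h arrays formed separate, tight groups. Dclk1 rose by 3.58 ± 0.24 at 48 h (adjusted p = 7.05e-07), by 4.93 ± 0.24 at 72 h (adjusted p = 7.87e-08) and by 1.34 ± 0.24 between 48 h and 72 h (adjusted p = 0.021). The last call was lost when any 1 of 5 arrays was left out, namely the 48 h arrays and 72 h replicates 1 and 2 (adjusted p of 0.073 to 0.13). At 24 h it was not called (0.34 ± 0.24, adjusted p = 0.405, and 0.52 ± 0.23, adjusted p = 0.112, without replicate 1). Because the early signal is so low, the size depends on the constant added before the logarithm. With 64 in place of 16 the Dclk1 differences were 1.98 at 48 h and 3.15 at 72 h, both still called. With 1 in place of 16 the step between 48 h and 72 h lost its call (1.62 ± 0.65, adjusted p = 0.552 by limma).

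Dclk1 had 9 probe sets, the most of any member, and the sources used here do not say which transcript each of them reads. All 9 were under the array's median on every uninduced and 24 h array, so they passed the filter only through later groups in which they were bright. Some passed through the 72 h arrays alone. The filter thus favoured rises among them, which limits the counts that follow. All 9 were called higher at 72 h (24.8% of all tested probe sets were), with log2 differences of 1.34 to 4.93. At 48 h 6 of the 9 were called higher (21% of all probe sets), with values of -0.0084 to 3.58 over the 9. Between 48 h and 72 h 8 of the 9 were called higher, against 0.663% of all probe sets, with values of 0.99 to 2.57 over the 9. One of them read 36.9, 46.5 and 3.79 at 48 h and 237, 258 and 180.2 at 72 h, and rose by 2.57 ± 0.36 in that step (adjusted p = 0.00532 over the 23364 probe sets tested). Its step was larger than the 1.34 of the brightest Dclk1 probe set, but the difference between probe sets was not tested. RefSeq lists 2 Dclk1 starts with promoter windows, at chr3:55242114-55242413 and chr3:55461478-55461777 on the plus strand.

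Map2 (chr1:66175202-66442583) encodes the MAP of dendrites and cell bodies. It read 39.6, 44.3 and 29.0 in uninduced cells, 48.1, 256 and 211 at 24 h, 1262, 1359 and 1288 at 48 h, and 2122, 1944 and 2204 at 72 h. Every later group lay wholly above every earlier one. At 24 h replicate 1 was close to the uninduced arrays, unlike the other two. Map2 rose by 1.57 ± 0.42 at 24 h (adjusted p = 0.0297), by 4.63 ± 0.42 at 48 h (adjusted p = 5.79e-06) and by 5.30 ± 0.42 at 72 h (adjusted p = 1.17e-06). Without replicate 1 the 24 h difference was 2.22 ± 0.16 (adjusted p = 1.65e-06). Leaving out any uninduced array (adjusted p of 0.0603 to 0.103), 24 h replicate 2 (0.0868) or 24 h replicate 3 (0.0729) ended the 24 h call. The 48 h to 72 h step was not called (0.67, 95% interval -0.23 to 1.58), but was without 24 h replicate 1 (adjusted p = 0.0192).

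Map1b (chr13:99421464-99516602) encodes a MAP of growing axons that appears early in neuronal development. Its signal was 71.8, 72.5 and 76.9 in uninduced cells, 69.2, 295 and 433 at 24 h, 942, 1083 and 1450.5 at 48 h, and 1879.6, 1568 and 591 at 72 h. The uninduced arrays were tight and the 72 h arrays wide, with replicate 3 below all 48 h arrays. Map1b rose by 3.69 ± 0.54 at 48 h (adjusted p = 0.000217) and by 3.77 ± 0.54 at 72 h (adjusted p = 0.000132). The 24 h difference was 1.35 ± 0.54 (adjusted p = 0.134), and 2.06 ± 0.37 (adjusted p = 0.0016) without replicate 1. No step between 48 h and 72 h was called (0.08, 95% interval -1.09 to 1.25). A further Map1b probe set placed 72 h replicate 3 highest instead of lowest, with 837, 697 and 1429 at 72 h against 753, 699 and 889.8 at 48 h.

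Mapt (chr11:104229409-104332090), which encodes the axonal protein tau, took another course from the other structural MAPs described above. It read 165, 173 and 235 in uninduced cells, 28.9, 26.5 and 30.9 at 24 h, 41.2, 51.5 and 17.3 at 48 h, and 317, 353 and 203 at 72 h. All 24 h and 48 h arrays were below all uninduced arrays, and the 72 h arrays overlapped the uninduced ones. Mapt fell by 2.20 on the log2 scale at 24 h (SE 0.29, adjusted p = 0.000517) and by 2.02 at 48 h (SE 0.29, adjusted p = 0.000192). The 24 h value was -2.20 ± 0.30 (adjusted p = 0.000267) without replicate 1. Mapt then rose by 2.57 ± 0.29 between 48 h and 72 h (adjusted p = 0.00179). At 72 h it was not called against uninduced cells (0.55, 95% interval -0.08 to 1.18, adjusted p = 0.145). Mapt was called higher at 72 h with the mean of its probe sets (0.60, adjusted p = 0.0472) and with array weights (0.81, adjusted p = 0.00383). All 4 Mapt probe sets were below their uninduced level at 24 h and 48 h, with 3 of the 4 called lower at each time, and 3 of the 4 were called higher between 48 h and 72 h. At 72 h 1 of the 4 was called against uninduced cells, and the values ran from 0.50 to 0.77. With 64 added before the logarithm the falls of Mapt were -1.45 at 24 h and -1.35 at 48 h, and with the mean of its probe sets -1.18 and -1.16, all called.

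Stmn2 (chr3:8509527-8561604) encodes stathmin-2, a tubulin-binding protein of growth cones, and was also lower first. It was bright in uninduced cells at 3222, 3649 and 3264, and read 1654, 1274 and 686 at 24 h, 4150.0, 3954 and 2528 at 48 h, and 4566, 5079 and 5237 at 72 h. All 24 h arrays lay below all uninduced arrays, the 48 h arrays straddled them and the 72 h arrays lay above. Stmn2 fell by 1.56 at 24 h (SE 0.28, adjusted p = 0.00393), and the value was -1.83 ± 0.24 (adjusted p = 0.000182) without replicate 1. It rose by 1.60 ± 0.28 between 24 h and 48 h (adjusted p = 0.00208). Neither the 48 h difference (0.04, 95% interval -0.58 to 0.65) nor the 72 h difference from uninduced cells (0.55, 95% interval -0.06 to 1.17, adjusted p = 0.133) was called. The 72 h call changed with single arrays, since adjusted p was 0.0385 without 24 h replicate 1 and 0.0447 without 24 h replicate 3. The 72 h difference of Stmn2 was also called with quantile normalisation (0.97, adjusted p = 0.0105), with the mean of its probe sets (1.19, adjusted p = 0.00312), with array weights (0.55, adjusted p = 0.00671) and with the 6 arrays alone (adjusted p = 0.00391).

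A further Stmn2 probe set read 1419.8, 1418 and 1188 in uninduced cells, 286, 437 and 185 at 24 h, 3098, 2961 and 1945 at 48 h, and 4672, 5091 and 4549 at 72 h. It had the same early dip, at -2.16 ± 0.28 (adjusted p = 0.000525), but ended higher than it began. Its difference was called at 48 h (0.96 ± 0.28, adjusted p = 0.019) and at 72 h (1.82 ± 0.28, adjusted p = 0.000233). The 2 Stmn2 probe sets thus had the same direction at 72 h and fell on opposite sides of the threshold.

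Stmn3 (chr2:181306459-181314500) encodes stathmin-3, a relative of stathmin-2 found in neurons. It read 155, 209 and 140.3 in uninduced cells, 633, 181 and 93.5 at 24 h, 1257, 1496 and 727 at 48 h, and 2894, 3269 and 2048 at 72 h. The 24 h arrays surrounded the uninduced ones, and from 48 h on each time lay wholly above those before it. Stmn3 rose by 2.63 ± 0.51 at 48 h (adjusted p = 0.0016) and by 3.89 ± 0.51 at 72 h (adjusted p = 6.76e-05). At 24 h the direction of Stmn3 rested on replicate 1, with 0.41 ± 0.51 (adjusted p = 0.647) on all arrays and -0.31 ± 0.31 (adjusted p = 0.517) without it. The suffix of this probe set also marks possible cross-hybridisation. The suffix-free Stmn3 probe set gave 2.27 ± 0.40 at 48 h (adjusted p = 0.000989) and 3.43 ± 0.40 at 72 h (adjusted p = 2.98e-05). The brightest probe set's step of 1.26 ± 0.51 between 48 h and 72 h was not called (adjusted p = 0.44), but was without 24 h replicate 1 (adjusted p = 0.0249).

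**Figure D2:**
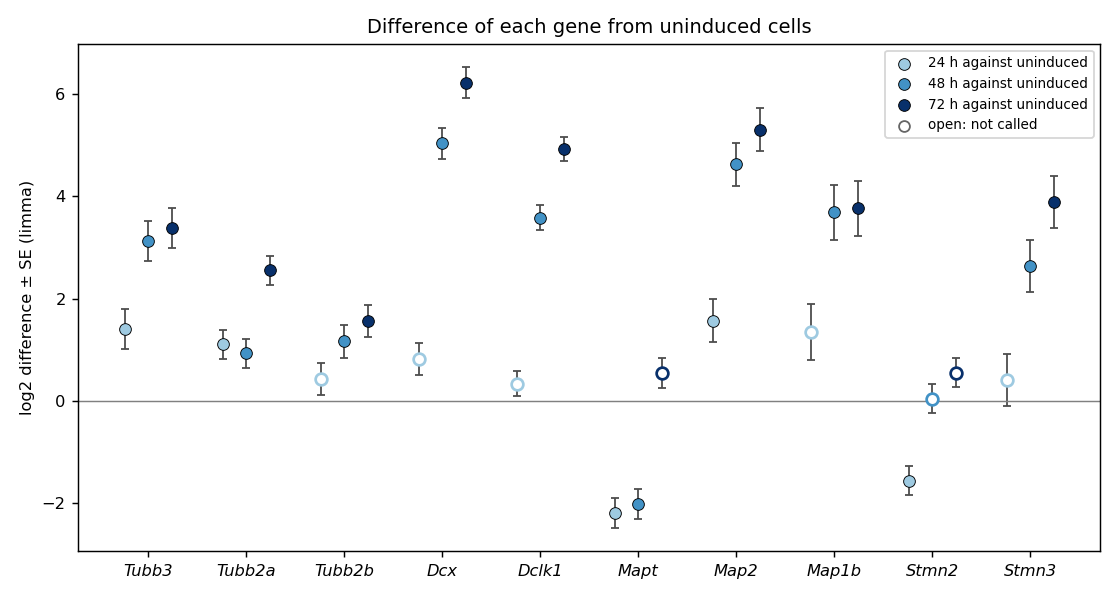
Log2 difference from uninduced cells at 24, 48 and 72 h (limma, n = 3 arrays per group); bars are SE and open points were not called. Dcx reaches 6.22 at 72 h, and Mapt (24 h and 48 h) and Stmn2 (24 h) are the points well below 0.

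At 24 h 3 of the 10 members were called higher (Tubb3, Tubb2a and Map2) and 2 lower (Mapt and Stmn2), where 8.12% of all tested genes were called higher and 3.18% lower. All 3 arrays at 24 h lay above all uninduced arrays for 4 members and below them for 2, as for 17.4% and 9.41% of all tested genes. The median difference of the 10 was 0.62, against 0.104 over all tested genes. At 48 h 8 were called higher and 1 lower, with 22.6% and 14% of all genes, and the members' median was 2.88 against 0.118. The arrays lay wholly above for 8 members and wholly below for 1 (35.4% and 26.9% of all genes). At 72 h 8 were called higher and 0 lower, with 25.3% and 18.6% of all genes, and the medians were 3.57 and 0.0867. The arrays lay wholly above for 9 members and wholly below for 0 (35.6% and 29.6% of all genes). Stmn2 and Mapt were the members not called at 72 h. Comparisons with uninduced cells share those 3 arrays.

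Most members were called higher between 24 h and 48 h, and 3 were called higher between 48 h and 72 h. From 24 h to 48 h 7 of the 10 were called higher and 0 lower (10.3% and 7.55% of all genes), and the arrays lay wholly above for 7 and wholly below for 0 (19.7% and 17.6%). Not called were Tubb2a (-0.18), Tubb2b (0.73) and Mapt (0.17). Without 24 h replicate 1 Tubb2b was called in that step as well (1.11 ± 0.23, adjusted p = 0.0034). From 48 h to 72 h 3 were called higher (Tubb2a, Dclk1 and Mapt) and 0 lower, where 0.644% of all genes were called higher and 0.152% lower. The members' median in that step was 0.93, against -0.0288 over all genes. In 8 of the 10 all 72 h arrays lay above all 48 h arrays, as in 11.5% of all tested genes, and in 0 they all lay below, as in 12.6%. Without 24 h replicate 1, whose scatter enters the spread used for every contrast, 6 of the 10 were called in the last step, the added ones being Dcx, Map2 and Stmn3. The share of all genes called higher was then 2.4%.

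**Figure D3:**
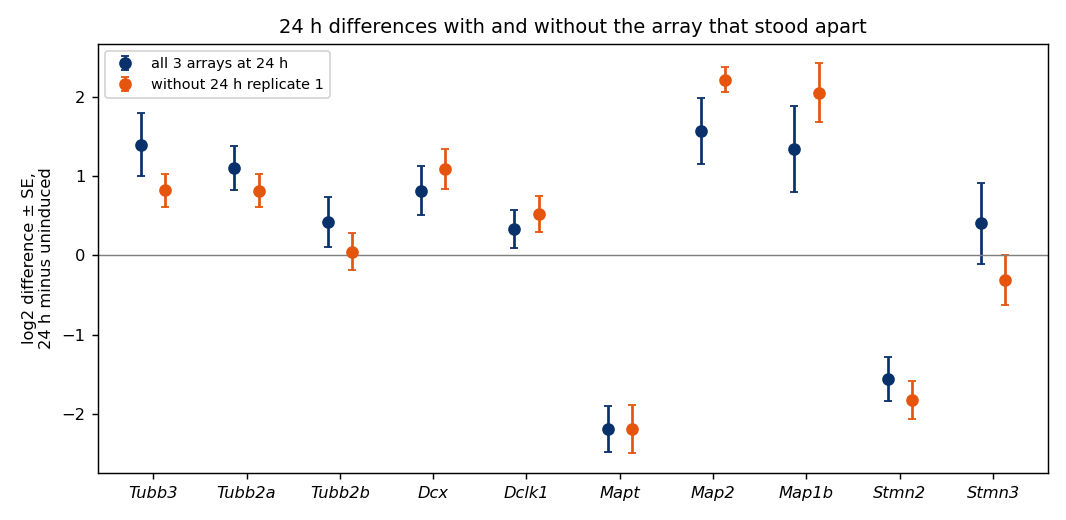
Log2 difference of 24 h from uninduced cells with all 3 arrays and without 24 h replicate 1 (limma, bars are SE). Map2 and Map1b are higher without that array, Tubb3 is lower and Stmn3 changes sign, while Mapt stays at -2.20.

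Without 24 h replicate 1 the 24 h comparison called 7 of the 10 members, as Dcx and Map1b joined the higher ones, with 16.1% of all genes called higher and 8.87% lower. The array did not move the members in 1 direction. Its signal was the highest of the 24 h group for Tubb3, Tubb2a, Tubb2b, Stmn2 and Stmn3, and the lowest for Dcx, Dclk1, Map2 and Map1b. For Mapt it lay between the other two. Its control ratio for Gapdh was 0.862, against 0.658 to 0.864 on the other arrays, and that for Actb 1.42 against 1.34 to 1.54. The part of RNA quality in these differences was not tested.

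Of the 22 further probe sets, 20 had the sign of their gene's brightest probe set at 24 h, 21 at 48 h and all 22 at 72 h. At 72 h 20 of the 22 were called higher, against 24.8% of all tested probe sets, and 0 lower. At 48 h 15 were called higher and 2 lower, against 21% and 11.4% of all probe sets. At 24 h 1 was called higher and 3 lower, against 5.59% and 2.25%, and none of the further Map2 probe sets was called. Between 48 h and 72 h 9 of the 22 were called higher, against 0.663%. The further Dclk1 and Dcx probe sets were under the array's median on every uninduced array. They passed the filter only through groups in which they were bright, which favours higher calls in these counts. Probe sets of 1 gene read the same RNA extracts and are no replicates of a condition.

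**Figure D4:**
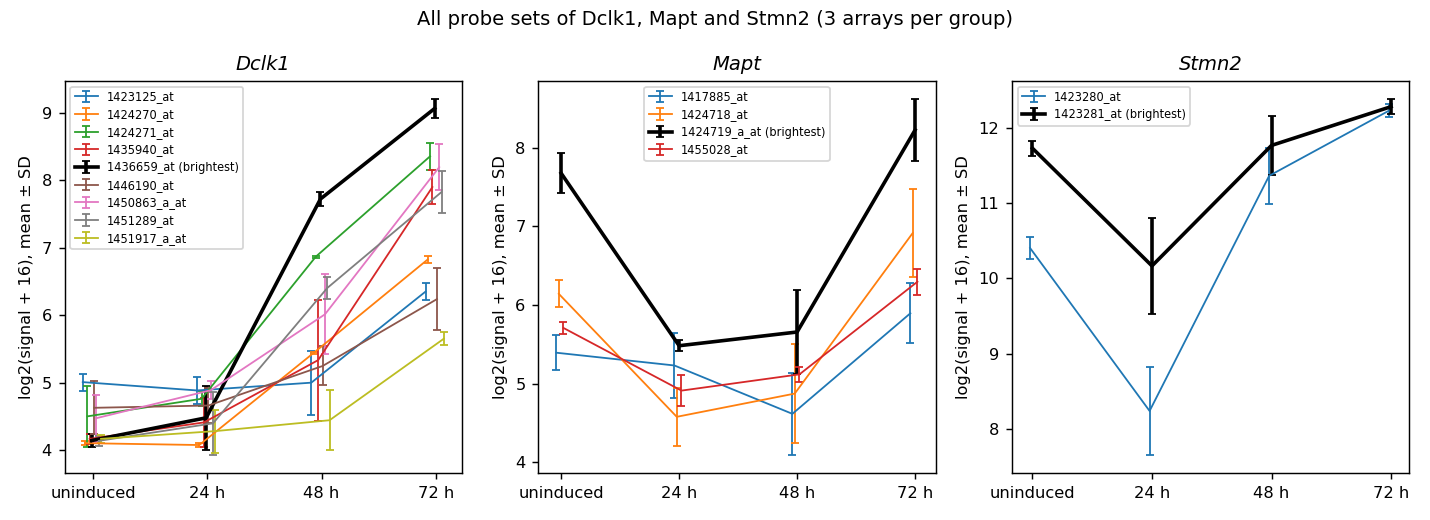
Mean log2(signal + 16) of every probe set of Dclk1, Mapt and Stmn2 from uninduced cells to 72 h; bars are SD over 3 arrays and the thick black line is the brightest probe set. All 9 Dclk1 lines end above their start, the 4 Mapt lines are lower at 24 h and 48 h, and both Stmn2 lines dip at 24 h.

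To place each time course among the tested genes, the root mean square distance over the 3 differences from uninduced cells was computed. Members were left out of the search for nearest genes. So were symbols ending in Rik or made of Gm, LOC, BC, AI, AW, AA or AK and digits. The gene with the shortest distance to each member is named here with that distance, over 3 time points that share the uninduced arrays. The 24 h differences used include 24 h replicate 1. Closest to Tubb3 was Rnf122 (0.080), and closest to Map1b was Meis1 (0.12). Dcx lay nearest to Nhlh2 (0.31), a basic helix-loop-helix gene. Dclk1 was nearest to Cntn1 (0.13), a neuronal adhesion molecule, and Map2 to Armh4 (0.26). The nearest to Tubb2a was Snap91 (0.16), to Tubb2b Tmem151b (0.017), to Stmn2 Pnn (0.087) and to Stmn3 Hspa12a (0.13). Mapt had the most isolated course of the members, with Anxa1 as the nearest of the genes searched at 0.57. Among the members themselves the closest were Tubb3 and Map1b (0.39), then Tubb2a and Tubb2b (0.71), Tubb3 and Stmn3 (0.71), and Dcx and Map2 (0.73).

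The other genes of the microtubule system were followed through lists chosen by function. Over all tested genes 8.12%, 22.6% and 25.3% were called higher at 24, 48 and 72 h and 3.18%, 14% and 18.6% lower, with medians of 0.104, 0.118 and 0.0867. The shares were 16.1%, 32.7% and 34% higher and 8.87%, 23.8% and 27.9% lower without 24 h replicate 1. Of 17 other tubulins listed, 13 were on the array and 9 passed the filter. At 24 h 3 of the 9 were called higher and 0 lower, and at both later times 2 higher and 2 lower. The later shares are near those of all genes. The list had a median of 0.27 at 24 h, then of 0.05 at 48 h and -0.0049 at 72 h. The 24 h median of these tubulins was 0.12 without 24 h replicate 1, and 3 were then called higher at each time and 0, 2 and 2 lower. Tuba1a, an alpha-tubulin prominent in developing neurons, rose by 1.08 ± 0.18 at 72 h (adjusted p = 0.000487). Tubb4a, a brain beta-tubulin, rose by 2.15 ± 0.27 at 72 h (adjusted p = 5.06e-05). Tubb4b fell by 1.71 (SE 0.24, adjusted p = 0.000108) and Tuba4a fell by 1.89 (SE 0.33, adjusted p = 0.000593) at 72 h.

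Of 29 other structural MAPs and tubulin-binding proteins listed, 24 were tested. They were called higher in 4, 11 and 14 cases at 24, 48 and 72 h, against 8.12%, 22.6% and 25.3% of all tested genes. Lower calls numbered 0, 1 and 1, against 3.18%, 14% and 18.6% of all tested genes, and the list had medians of 0.25, 0.90 and 1.32. With 24 h replicate 1 left out the higher calls were 5, 14 and 15, the lower ones 0, 1 and 1, and the 24 h median 0.085. The shares of all genes were then 16.1%, 32.7% and 34% higher and 8.87%, 23.8% and 27.9% lower. Stmn4, another stathmin, rose by 5.14 ± 0.36 at 72 h (adjusted p = 5.57e-07) and Dpysl2, the collapsin response mediator CRMP2, rose by 4.18 ± 0.27 (adjusted p = 2.84e-07). Map7 fell by 1.63 at 72 h (SE 0.26, adjusted p = 0.000254). The 20 tested microtubule end-binding and linker proteins were called higher in 3, 9 and 13 cases and lower in none, led at 72 h by Mapre2, an end-binding protein (4.28 ± 0.25, adjusted p = 1.44e-07). Without 24 h replicate 1 the higher calls of that list numbered 7, 13 and 15, with 1 lower call at 48 h and at 72 h.

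Among 26 tested enzymes that fold, modify or sever tubulin, 2, 8 and 10 were called higher and 0, 0 and 2 lower at 24, 48 and 72 h. The higher shares were 7.69%, 30.8% and 38.5%, against 8.12%, 22.6% and 25.3% of all tested genes. At 24 h the share was thus near that of all genes. Lower calls were made for 3.18%, 14% and 18.6% of all tested genes. The list had medians of 0.23, 0.39 and 0.40. Without 24 h replicate 1 it had 4, 11 and 11 higher calls, 0, 2 and 4 lower calls, and a 24 h median of 0.16. The shares of all genes were then 16.1%, 32.7% and 34% higher and 8.87%, 23.8% and 27.9% lower. The higher share of this list at 24 h was again near that of all genes. Ttll7, a tubulin polyglutamylase, rose by 5.16 ± 0.29 at 72 h (adjusted p = 1.41e-07), and Fign, a severing enzyme, rose by 3.14 ± 0.33 (adjusted p = 1.26e-05). Hdac6, a tubulin deacetylase, fell by 1.36 (SE 0.41, adjusted p = 0.0169). Of 22 tested transport motor genes 3, 8 and 13 were called higher and 0 lower, and without 24 h replicate 1 5, 16 and 17 were called higher and 0, 1 and 1 lower. The kinesin heavy chain gene Kif5a rose by 4.71 ± 0.35 at 72 h (adjusted p = 7.14e-07) and the light chain gene Klc1 rose by 4.69 ± 0.34 (adjusted p = 6.78e-07). Of 19 kinases and activators that act on tau, MAPs or doublecortin, 4, 10 and 13 were called higher and 0 lower. Leaving out 24 h replicate 1 gave 6, 14 and 14 higher and 0, 1 and 1 lower. Brsk2, a kinase of neuronal polarity, rose by 3.78 ± 0.29 at 72 h (adjusted p = 9.45e-07), and Cdk5r1, the Cdk5 activator p35, rose by 2.87 ± 0.31 (adjusted p = 1.64e-05).

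Of 28 tested genes of the mitotic spindle, the microtubule machine of dividing cells, 0, 8 and 13 were called lower at 24, 48 and 72 h, where 3.18%, 14% and 18.6% of all tested genes were. The other tested genes of the list were not called lower with all 12 arrays. None was called higher at those times, and the list had medians of -0.44, -0.87 and -1.14. Ska1, part of a complex that ties kinetochores to microtubules, fell by 1.58 at 48 h (SE 0.21, adjusted p = 0.000112) and by 1.80 at 72 h (SE 0.21, adjusted p = 2.81e-05). Aurka, a mitotic kinase, fell by 1.29 at 48 h (SE 0.26, adjusted p = 0.00231), and Dlgap5 fell by 1.59 at 72 h (SE 0.46, adjusted p = 0.0134). Without 24 h replicate 1 the lower calls of this list were 0, 22 and 22, and the higher calls 1, 2 and 1. The shares of all genes were then 8.87%, 23.8% and 27.9% lower and 16.1%, 32.7% and 34% higher. The median of the spindle list at 24 h was then -0.07.

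**Figure D5:**
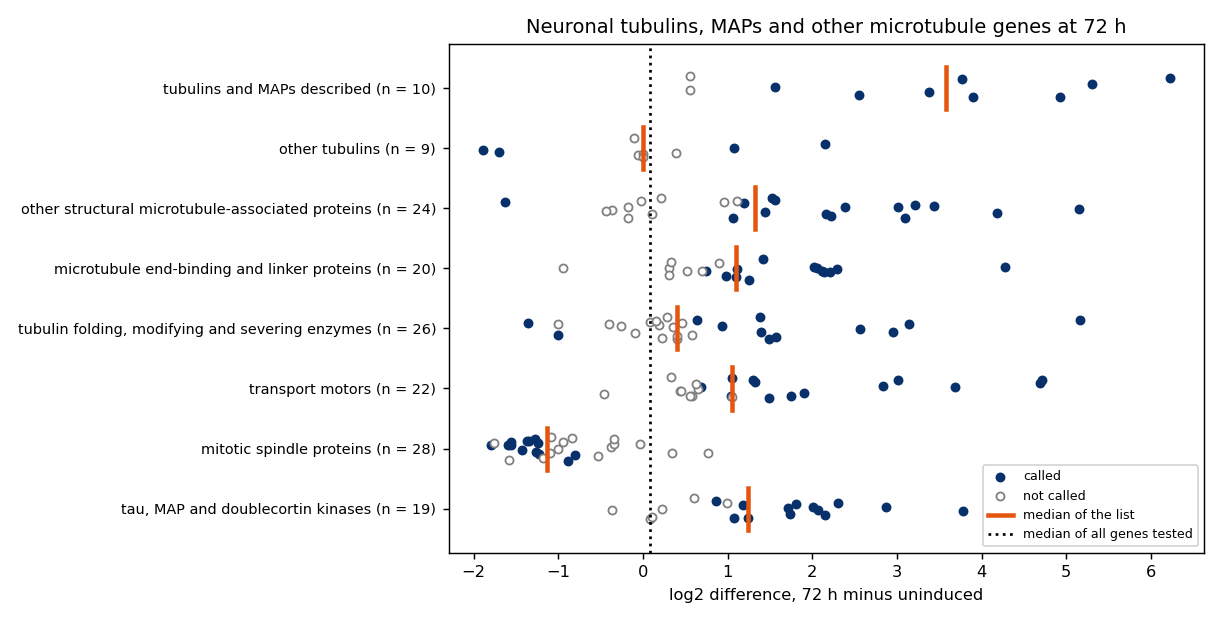
Log2 difference of 72 h from uninduced cells for the tested genes of each list, 1 point per gene; filled points were called (limma, adjusted p under 0.05) and the bar is the list's median. The 10 genes described have a median of 3.57, and the mitotic spindle genes one of -1.14.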

How the data were processed

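Gene expression was measured in 12 ES cell samples with Affymetrix arrays from biotin-labelled total RNA, 3 per group. The authors deposited linear-scale intensity values, with 1 signal for each probe set and array. The submitters' processing notes name MAS5, but the sources used here give neither its version nor its settings. The 2% trimmed mean was 150 on each array, and array medians ran from 19.5 to 32.8. No pair of arrays held identical values, and precision is limited by how many arrays there are.

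Of 45101 probe sets, 34945 had 1 gene symbol in the platform annotation, 932 several and 9160 none, and 64 were controls. By Entrez identifier 34741 matched the RefSeq table of GRCm38.p6, which also gave gene positions, and 0 symbols changed. The arrays' build and the position of probe sets within transcripts are not given.

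The authors' scaling was kept and log2(signal + 16) was taken, which makes the change of a dim gene look smaller. The brightest probe set of each of 18193 genes entered; 11806 of them were tested because 3 or more arrays in some group read above that array's median (percentile 50). One limma 3.58.1 model in R 4.3.3 with 4 group terms (eBayes with intensity trend) gave 5 two-sided contrasts over all 12 arrays, with Benjamini-Hochberg adjustment over the genes tested. P-values measure the spread between arrays labelled biological replicates. The fit was checked on simulated data.

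Members, lists, markers and the naming rule were chosen with earlier results of these data known. The rule named the members, Neurog1 and the 3 nearest time courses of each member, of which the nearest is given. In each list it named up to 2 called rises and 2 called falls with the largest change at each time. Alternatives covered the pseudocount, the filter, normalization, the choice of probe set, arrays fitted, array weights, the trend, a replicate block and each array left out.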

Additional observations from a re-analysis of the deposited data

Results flagged for a closer look

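The difference from uninduced cells changed between consecutive induced times for 9 members, as tested by the contrast of the later against the earlier time in the limma model. From 24 h to 48 h the log2 difference grew by 4.22 for Dcx, 3.25 for Dclk1, 3.06 for Map2, 2.34 for Map1b, 2.23 for Stmn3 and 1.73 for Tubb3, while Stmn2, which was below its uninduced level at 24 h, moved by 1.60. These are 7 members of 10, where 10.3% of all tested genes were called higher and 7.55% lower in that step, and in each of the 7 all 48 h arrays lay above all 24 h arrays. From 48 h to 72 h it changed by 2.57 for Mapt, 1.62 for Tubb2a and 1.34 for Dclk1, again with no overlap between the groups. Of all tested genes 0.644% were called higher and 0.152% lower in that step.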

How the results depend on the processing

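Each alternative changed 1 choice. At 72 h against uninduced cells all 8 member calls were kept in every alternative run, and the 24 h falls of Mapt and Stmn2 likewise. Members called at 24 h (5 by the chosen settings) numbered 3 with the mean of all probe sets and 2 with the 6 arrays compared alone, where 8 members were tested. Members called from 24 h to 48 h (7) numbered 4 with the 6 arrays alone. Members called from 48 h to 72 h (3) numbered 1 with a pseudocount of 1, 6 with the 6 arrays alone and 7 with array weights. With 1 array left out, members called ranged from 2 to 7 at 24 h, 8 to 9 at 48 h, 8 to 9 at 72 h, 7 to 8 from 24 h to 48 h and 1 to 6 from 48 h to 72 h. Genes called ranged from 710 to 2972 (main 1335), 3225 to 6718 (4316), 4074 to 7360 (5180), 1186 to 3012 (2104) and 27 to 485 (94) in the same order. Genes called from 48 h to 72 h were 19 with a pseudocount of 1, 243 with 64, 51 with the filter at the 75th percentile, 151 with the mean of all probe sets, 469 with the 6 arrays alone and 2549 with array weights. The 6 arrays alone gave 385 genes at 24 h and 1045 from 24 h to 48 h, and array weights 6956 genes at 48 h and 8108 at 72 h. The weight of 24 h replicate 1 was 0.052. Directions turned only for values that were not called: Mapt from 24 h to 48 h (-0.027 with quantile normalization, -0.035 to 0.48 with 1 array left out), Stmn3 at 24 h (-0.39 with array weights, -0.31 to 0.97), Tubb2a from 24 h to 48 h (-0.48 to 0.11), Stmn2 at 48 h (-0.093 to 0.26) and Map1b from 48 h to 72 h (-0.24 to 0.58). The causes were not tested. Quantile normalization shifted the median of all genes by -0.146 at 48 h, -0.164 at 72 h and -0.11 from 24 h to 48 h, and turned 1213 higher and 891 lower calls of that last step into 999 and 1186; member calls kept their direction. The labels do not say that replicate numbers mark a shared culture or day, and deviations of same-numbered arrays correlated at 0.0787 to 0.317 (replicate 1), 0.0308 to 0.421 (replicate 2) and 0.152 to 0.577 (replicate 3). For 11 of the 12 arrays the best match had its own number, a hint from the data. With a replicate block the members called were 5 at 24 h, 9 at 48 h, 8 at 72 h, 8 from 24 h to 48 h and 3 from 48 h to 72 h, and the genes called 1676, 4709, 5616, 2501 and 111. The only member call it changed was Tubb2b from 24 h to 48 h (0.73, adjusted p = 0.0344 by limma).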

Other observations

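A probe set shared by Tubb2b and the pseudogene Tubb2a-ps2, left out of the comparisons because it names several genes, read 685 to 1363 in uninduced cells, 659 to 1244 at 24 h, 1640 to 3548 at 48 h and 2457 to 5747 at 72 h. All of its 48 h and 72 h arrays were above all of its uninduced arrays, and the 24 h arrays overlapped them.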
